A study of Mus musculus with 2 samples.

Results

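The type 17 cytokines and their receptors are described here as 7 of the 18595 genes measured in single cells of the mouse esophagus. They were chosen by name: the cytokines Il17a, Il17f and Il22, the IL-23 receptor subunit gene Il23r, and the receptor genes Il17ra, Il17rc and Il22ra1. All 7 were found in the table, and each was followed over 19 clusters of cells in both libraries. One library (Control) came from mice whose Keap1 genes are both the loxP-flanked allele floxB (genotype Keap1 floxB/floxB). The other (Keap1 cKO) came from mice with those same alleles plus K5CreERT2, a tamoxifen-inducible Cre recombinase driven by the keratin 5 promoter, which is active in basal keratinocytes. Both were hybrids of C57BL/6J and BALB/c, and the muscle layers were removed before cells were freed with trypsin. The sources used here give no age, tamoxifen dose or number of mice pooled. With 1 library per genotype there was no test. All intervals are exact 95% intervals that cover counting error and not the spread between mice, so genotype and library cannot be told apart.

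IL-17A and IL-17F are secreted by type 17 lymphocytes, among them helper T cells and gamma-delta T cells, and act on epithelial cells and fibroblasts through a receptor built from IL-17RA and IL-17RC. Signals pass through the adaptor Act1 (Traf3ip2) to NF-kB and C/EBP factors, and raise antimicrobial proteins and neutrophil-attracting chemokines. IL-22 comes from overlapping cells, binds IL-22RA1 with IL-10RB on epithelium and acts through STAT3. IL-23, sensed by IL-23R with IL-12RB1, sustains these lymphocytes.

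RNA molecules were counted as UMIs (unique molecular identifiers): 30501227 over 2472 Control cells and 26036522 over 2381 Keap1 cKO cells. Keap1 itself was at 69.8 UMIs per 1000000 (CPM) in epithelial cells of Control and 44.5 CPM in those of Keap1 cKO, and in T cells of cluster 3, where keratin 5 is not expected, at 87.4 and 40.4 CPM. A 3′ tag can lie outside the deleted exons, so this does not check the deletion. The libraries shared 5 cell barcodes. The authors' cluster 3 (annotated T cell) had 59 Control and 378 Keap1 cKO cells, 2.39% and 15.9% of each library, and cluster 11 (also T cell) had 58 and 163, 2.35% and 6.85%. Their Cd3d, Cd3e and Cd3g markers were present in both: cells with a UMI of any of them were 58 of 59 and 378 of 378 in cluster 3, and 54 of 58 and 157 of 163 in cluster 11. Cluster 16, also annotated T cell, was not compared between libraries. Its 24 Control cells held 14103 CPM of 6 keratinocyte markers against 530 CPM in its 48 Keap1 cKO cells.

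Il17a, Il17f and Il23r are shown by the bases in front of their starts because each holds a match to AGGTCA, the core letters of elements that many nuclear receptors are known to bind. The sequences are from RefSeq (GRCm38.p6), printed 5′ to 3′ along each gene, with matches on either strand in capitals. Il17a lies on the plus strand of chromosome 1 (gene 20730905-20734496, mm10) and its window spans chr1:20730655-20730904. Il17f lies on the minus strand of the same chromosome (20777146-20790617), 42649 bases from Il17a, and its window, which spans chr1:20784271-20784494, lies inside that annotated gene but outside its exons. Il23r lies on the minus strand of chromosome 6 (67422932-67491855), and its window spans chr6:67491856-67492105.
Il17a: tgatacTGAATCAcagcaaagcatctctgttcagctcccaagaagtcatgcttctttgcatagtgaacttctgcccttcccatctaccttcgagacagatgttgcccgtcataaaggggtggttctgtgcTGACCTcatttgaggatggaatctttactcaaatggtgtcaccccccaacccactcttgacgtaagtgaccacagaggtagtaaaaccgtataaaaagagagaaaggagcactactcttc
Il17f: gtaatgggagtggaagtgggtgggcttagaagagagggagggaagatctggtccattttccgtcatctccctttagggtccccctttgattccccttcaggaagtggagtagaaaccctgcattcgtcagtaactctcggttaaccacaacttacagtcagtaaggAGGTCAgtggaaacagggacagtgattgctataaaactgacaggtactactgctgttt
Il23r: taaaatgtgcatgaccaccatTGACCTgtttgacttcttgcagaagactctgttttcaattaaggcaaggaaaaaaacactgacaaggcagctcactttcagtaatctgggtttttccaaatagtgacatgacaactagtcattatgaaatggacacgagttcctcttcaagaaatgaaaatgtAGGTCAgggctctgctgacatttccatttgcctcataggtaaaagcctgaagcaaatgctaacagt
The AGGTCA matches began 120 bases before the start of Il17a (minus strand), 58 bases before Il17f (plus strand), and 229 (minus strand) and 66 bases (plus strand) before Il23r. The other capitals in Il17a are a match to TGANTCA, an AP-1 site, which overlaps no other match. The windows shown leave out bases that an annotated exon covers (222 to 250 bases were left for each member). Of 32851 promoter windows of 250 bases, 14% held AGGTCA, 6.75% held TGANTCA and 7.02% held TTCNNNGAA, a STAT site that none of the 6 members with a RefSeq window held. The windows of Il22, Il17rc and Il22ra1 had no AGGTCA, and that of Il22ra1 had 1 TGANTCA. These are letter matches, not sites shown to be bound.

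Il17a, the founding cytokine of the family, was the most abundant member in T cells of the Keap1 cKO library. Its UMIs numbered 388 in Control and 6119 in Keap1 cKO, or 12.7 and 235 CPM. This is an 18.5-fold higher level (16.7 to 20.5), a log2 ratio of 4.21 (4.06 to 4.36). Among cells with at least 2 Cd3 UMIs, which were 154 and 776 cells, the levels were 277 and 623 CPM (log2 ratio 1.17, 1.02 to 1.32). Such cells made up 6.23% (Control) and 32.6% (Keap1 cKO) of each library, and held 98.7% and 97.5% of the Il17a UMIs. Of them, 37 and 207 lay outside clusters 3, 11 and 16. There Il17a was lower in Keap1 cKO, at 167 and 129 CPM (log2 ratio -0.37, -0.67 to -0.07). In Control 45 of the 112 UMIs were in 1 cell of cluster 2, so this direction leans on that cell. In these cells Il17rc was at 35.8 and 53.8 CPM, against 3.12 and 13.7 CPM in cluster 3. The part of RNA from other cell types in them was not tested.

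Cluster 3 held 250 Il17a UMIs in Control and 4558 in Keap1 cKO. The level was 781 CPM (687 to 884) against 1416 CPM (1375 to 1458), a log2 ratio of 0.86 (0.68 to 1.05). The median cell had 1 UMI in Control and 7 in Keap1 cKO, and the highest cells had 53 and 203, so the cells of both libraries overlapped. The 6 Control cells with the most Il17a held 62.8% of the UMIs, and without the top 5 cells of each library the log2 ratio was 1.83. With cells thinned to 5000 UMIs, an Il17a UMI was found in 21 of 38 Control cells (55.3%, 38.3% to 71.4%) and 311 of 356 Keap1 cKO cells (87.4%, 83.5% to 90.6%). Thinning left out 21 and 22 shallower cells, and the shares at full depth were 57.6% and 91.8%, at median depths of 5299 and 8224.5 UMIs. In Keap1 cKO cells with under 2 Cd3 UMIs, most of which should lack the gene, 8.72% had an Il17a UMI at full depth. The level was 9.30 CPM. This group can hold T cells whose Cd3 UMIs were missed, and it includes 10 cells of cluster 16 with 4 Il17a UMIs.

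In cluster 11, which carries alpha-beta T cell genes, Il17a had 2 UMIs in Control, both in 1 cell, and 276 in Keap1 cKO. The levels were 5.75 CPM (0.696 to 20.8) and 233 CPM (207 to 263), a ratio of 40.6 (11.1 to 337). Without the 5 cells of each library with the most Il17a, the log2 ratio went from 5.34 to a lower bound of 3.47. In the Keap1 cKO library 44 of 163 cells had an Il17a UMI, 32 of them with more alpha-beta than gamma-delta marker UMIs, and the highest had 73. Of all its Keap1 cKO cells, 138 had more alpha-beta and 23 more gamma-delta marker UMIs. The 138 cells held 117 Il17a UMIs (118 CPM), and the 23 cells held 159 (890 CPM). The cluster itself differed between libraries: summed cytotoxic markers were at 2178 and 569 CPM, and red cell markers at 51197 and 1052 CPM. Their part in the result was not tested. Ordered by level, the Keap1 cKO clusters ran from cluster 3 to cluster 16 (596 CPM, 547 to 648), the epithelial cluster 10 (449 CPM from 36 UMIs), cluster 11, and cluster 8 (145 CPM). The intervals of clusters 16 and 10 overlapped. In Control, cluster 3 was followed by cluster 16 at 31.8 CPM and myeloid cluster 2 at 30.9 CPM, whose intervals overlapped.

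**Figure D1:**
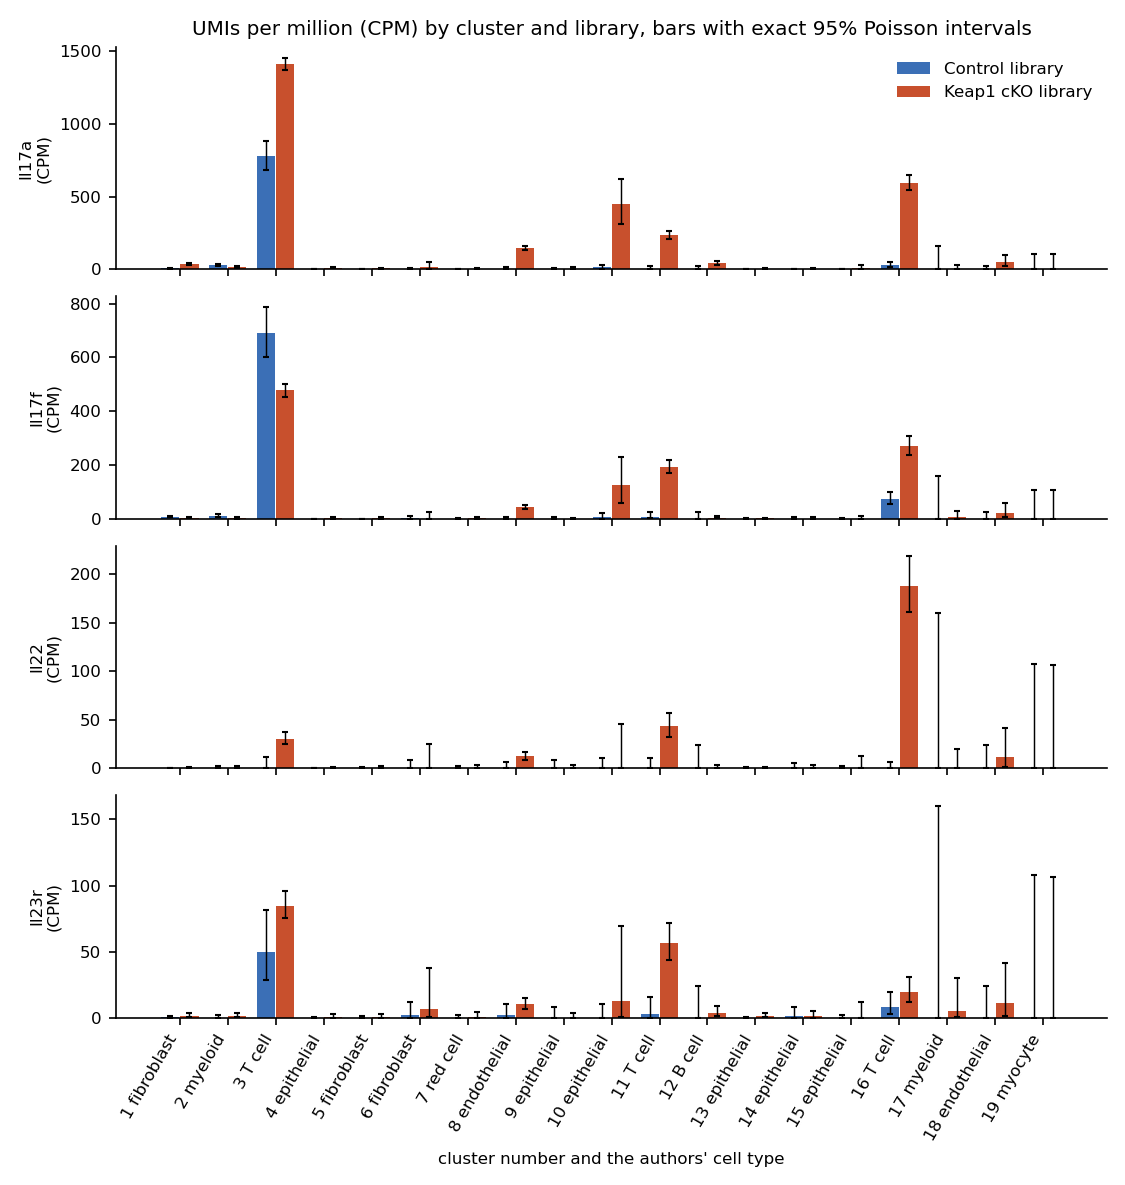
UMIs per 1000000 (CPM, vertical axes, linear) of Il17a, Il17f, Il22 and Il23r in each of 19 clusters (horizontal axis, with the authors' cell type) in the Control (blue) and Keap1 cKO (orange) libraries, bars with exact 95% Poisson intervals. Cluster 3 has the tallest Il17a bars in both libraries (781 and 1416 CPM), and Il22 has no Control bar in any cluster.

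Il17a UMIs also lay in clusters annotated as other cell types. Cluster 8 (annotated endothelial) held 409 in Keap1 cKO, of which 388 were in 44 of its 203 cells that had at least 2 Cd3 UMIs. Its 159 other cells were at 11.7 CPM, near the 9.30 CPM of all Keap1 cKO cells with under 2 Cd3 UMIs. In Control, fibroblast cluster 1 and myeloid cluster 2 held 51 and 55 Il17a UMIs, of which 50 and 55 were in cells with at least 2 Cd3 UMIs. Epithelial cells held 7 and 93 Il17a UMIs, 0.509 and 12.5 CPM. There Trdc, the constant gene of the delta chain, was at 0.145 and 39.0 CPM, and the 3 Cd3 genes together at 7.19 and 44.5 CPM. The part of T cell RNA in the epithelial values was not tested.

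The cells with Il17a differed in their T cell receptor genes between the libraries. Cells were called by whether they had more UMIs of gamma-delta markers (Trdc, Tcrg-C1, Trdv4, Tcrg-V6, Cd163l1 and others) or of alpha-beta markers (Trac, Trbc1, Trbc2, Cd4, Cd8a, Cd8b1). Of the 27 Control cells with at least 3 Il17a UMIs, 7 had more gamma-delta and 19 more alpha-beta UMIs. Of the 371 such Keap1 cKO cells, 353 had more gamma-delta and 15 more alpha-beta UMIs. At least 2 Cd3 UMIs were found in 27 of the 27 and 368 of the 371. In cluster 3 as a whole the makeup was 14 gamma-delta and 44 alpha-beta cells in Control, and 377 and 1 in Keap1 cKO. Trac, the alpha chain constant gene, was at 625 and 41.3 CPM there, Trdc at 450 and 1937 CPM, and Cd3e at 512 and 589 CPM. The variable genes Trdv4 and Tcrg-V6 were at 181 and 723 CPM and at 24.98 and 168 CPM. Trbc1 and Trbc2, the beta chain constant genes, were at 793 and 449 CPM and at 884 and 716 CPM. In Keap1 cKO they were found in 274 and 361 of the 378 cells, of which 377 were called gamma-delta. They count as alpha-beta markers, so the call can lean to alpha-beta where gamma-delta UMIs are few. Cd4 was found in 24 of the 59 and 2 of the 378 cells, and Cd8a in 0 and 1. These genes help to define the clusters, so the makeup is a description of what was compared.

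Il17f, which forms homodimers and heterodimers with IL-17A, had the opposite direction to Il17a in cluster 3. It had 221 Control UMIs and 1539 Keap1 cKO UMIs, or 690 CPM (602 to 787) and 478 CPM (455 to 503), a log2 ratio of -0.53 (-0.73 to -0.32). Over the whole library it was nonetheless higher, at 11.3 and 84.3 CPM (log2 ratio 2.90). The values differed between kinds of T cell in cluster 3. In cells with more gamma-delta markers there were 24 UMIs in 14 Control cells and 1537 in 377 Keap1 cKO cells, 329 and 480 CPM, a log2 ratio of 0.54 (-0.04 to 1.19). In cells with more alpha-beta markers there were 188 UMIs in 44 Control cells, 771 CPM, and 2 UMIs in the 1 Keap1 cKO cell, too few to compare. The first interval includes 0. Il17a was at 1042 and 1413 CPM in the gamma-delta cells, a log2 ratio of 0.44 (0.11 to 0.79).

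Il17a made up 53.1% (48.5% to 57.7%) of the Il17a and Il17f UMIs of cluster 3 in Control, and 74.8% (73.6% to 75.8%) in Keap1 cKO. Within the gamma-delta cells the shares were 76.0% and 74.7%, and in the Control alpha-beta cells 47.3%. Leaving out the 5 cells of each library with the most of both gave 41.6% and 77.6%. Both genes were found together in 30 of 59 Control cells. Il17f without Il17a was found in 12 of them (20.3%), and Il17a without Il17f in 4 (6.78%). In Keap1 cKO, 167 of 378 cells had both, 8 (2.12%) had Il17f without Il17a, and 180 (47.6%) had Il17a without Il17f. In cluster 11 Il17f was at 8.62 CPM (3 UMIs, 1 cell) and 193 CPM (228 UMIs, 42 cells), a log2 ratio of 4.48 (2.92 to 6.77). Of those 42 cells, 33 had more alpha-beta marker UMIs, as did 138 of all 163 Keap1 cKO cells of the cluster. The 138 cells held 183 Il17f UMIs (184 CPM), and the 23 with more gamma-delta markers held 45 (252 CPM).

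**Figure D2:**
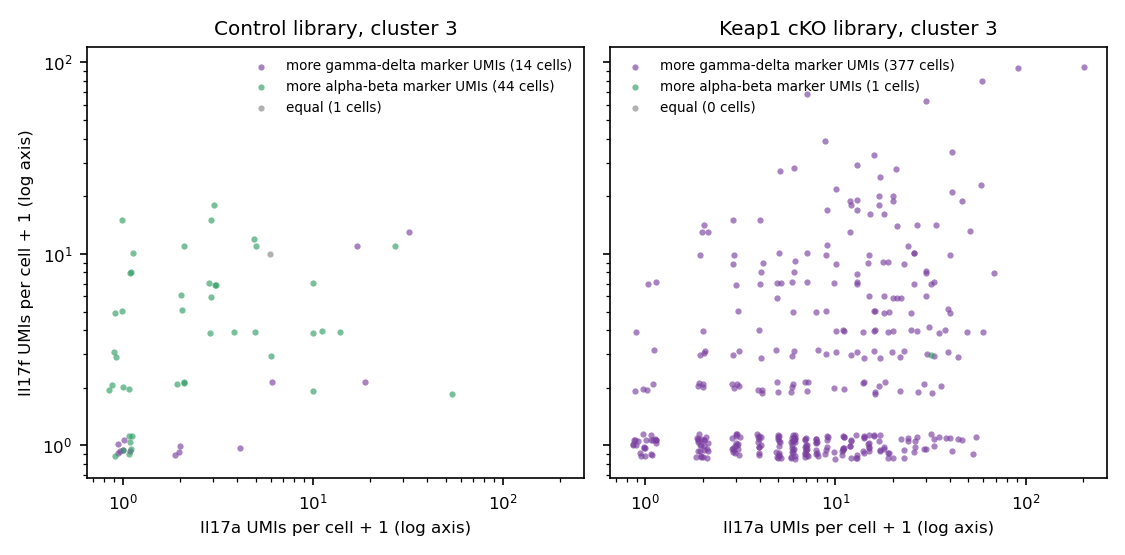
Il17a UMIs plus 1 (horizontal log axis) against Il17f UMIs plus 1 (vertical log axis) in each cell of cluster 3, left Control and right Keap1 cKO, jittered by a small amount. Green points (more alpha-beta marker UMIs) are 44 of the Control cells and 1 of the Keap1 cKO cells; purple points (more gamma-delta marker UMIs) are 14 and 377.

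Il22, the cytokine that acts on epithelium through STAT3, was not found in Control and had 363 UMIs in Keap1 cKO. The 0 of 30501227 Control UMIs allows up to 0.0984 CPM (3 counts), against 13.9 CPM (12.5 to 15.5) in Keap1 cKO, at least 142-fold higher. Among cells with at least 2 Cd3 UMIs, whose share of the library differed, the counts were 0 and 360, a lower bound of 17.3-fold. All 363 UMIs were in 65 cells, and 62 of those had at least 2 Cd3 UMIs. One cell of cluster 16 held 138 UMIs, 38.0% of the total, and 3 cells held over 50% of it. In cluster 3 the counts were 0 and 98 in 31 cells, a lower bound of 3.25-fold with the Control floor at 9.37 CPM, and without the top 5 cells of each library the bound fell to a log2 ratio of 0.15. Against the 14 Control gamma-delta cells alone, where 3 counts are 41.1 CPM, the 30.6 CPM of their Keap1 cKO counterparts was not detectably higher. In cluster 11 the counts were 0 and 51 in 15 cells, and in Keap1 cKO cells of cluster 16 there were 175. With cells of cluster 3 thinned to 5000 UMIs, 0 of 38 Control cells allows a share of up to 7.89% with an Il22 UMI, against 5.90% in Keap1 cKO (21 of 356), so a difference in that share was not detectable. At full depth the limit was 5.08% and the Keap1 cKO share 8.20%.

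Cells with Il22 in the Keap1 cKO library mostly had the receptor genes common in their cluster. In cluster 3, 31 of 31 had more gamma-delta marker UMIs, as did 377 of all 378 cells. Il17a was found in 28 of the 31 and in 91.8% of all. In cluster 11, 14 of 15 had more alpha-beta marker UMIs, as did 138 of all 163 cells. Il17a was found in 7 of the 15 and in 44 of the 163. The receptor gene counts follow the makeup of the clusters, so nothing about Il22 is read from them. Over the 65 cells with Il22, Trdc was found in 51 and the chemokine receptor gene Ccr6 in 39. Il22 lies on the plus strand of chromosome 10 (118204942-118210047), 79581 bases from Iltifb (118289629-118295038), a near-identical copy. Iltifb had 0 and 19 UMIs, and reads that match both could have been split or left uncounted, so the Il22 values are uncertain by an amount that was not measured.

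Il23r, the IL-23 receptor subunit that marks type 17 lymphocytes, had 27 UMIs in Control and 411 in Keap1 cKO (0.885 and 15.8 CPM; log2 ratio 4.16, 3.59 to 4.78). Cells with at least 2 Cd3 UMIs held 26 and 401 of them. In cluster 3 it had 16 and 273 UMIs, 49.97 CPM (28.6 to 81.1) and 84.8 CPM (75.1 to 95.5), a log2 ratio of 0.76 (0.04 to 1.59). In cells of cluster 3 with more gamma-delta markers it was lower in Keap1 cKO, 192 against 85.2 CPM, from 14 and 273 UMIs (log2 ratio -1.17, -1.94 to -0.28). The Control value rests on 14 cells. No cell of cluster 3 had more than 5 Il23r UMIs. Of the 11 Control cells of cluster 3 with Il23r, 4 had Il17a, and of the 164 Keap1 cKO cells 150 had it. Among all cells of cluster 3, 34 of 59 in Control and 347 of 378 in Keap1 cKO had Il17a. In cluster 11 it had 1 and 67 UMIs, 2.87 and 56.7 CPM, a ratio of 19.7 (3.42 to 791).

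The ligand genes of IL-23 were scarce. Il23a, its own subunit, had 9 and 37 UMIs, 6 of the Control ones in myeloid cluster 2, in 1 cell that also had at least 3 Il17a UMIs, and 10 of the Keap1 cKO ones in cluster 17, a neutrophil-rich myeloid cluster. Epithelial cells held 1 and 19 Il23a UMIs (log2 ratio 5.13, 2.48 to 10.51). Il12b, the subunit shared with IL-12, had 3 and 9 UMIs, 7 of the latter in cluster 12 (annotated B cell).

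Members at least 1.5-fold apart were counted over genes with at least 20 UMIs across both libraries. In cluster 3, 6 of the 7 members met that minimum. Of these 4 were higher in Keap1 cKO (Il17a, Il22, Il23r and Il17rc, the last on 1 and 44 UMIs with an interval that reached below 0) and 0 lower, where 21.6% of 9259 genes were higher and 14.5% lower. Il17f, at -0.53, stood just inside the 1.5-fold line. In cluster 11, 5 members met it and 4 were higher (Il17a, Il17f, Il22 and Il23r), 0 lower, where 23.2% of 7421 genes were higher and 9.34% lower. In epithelial cells 4 met it and 2 were higher (Il17a and Il17f), 0 lower, where 17.5% of 12638 genes were higher and 15.8% lower. Il22 in the 2 T cell clusters is counted at its bound. Members with few Control UMIs, such as the 4 in cluster 11 (0 to 3 each), passed the minimum through the Keap1 cKO library where they were high, so the counts are a description and nothing is read from them.

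Il17ra, the receptor chain shared by several IL-17 cytokines, did not follow Il17rc across cell types. In the Keap1 cKO library its level was highest in cluster 17 (284 CPM, 213 to 372, 56 cells), followed by clusters 3, 11, 2 and 12 (86.1, 81.2, 72.2 and 67.3 CPM), whose intervals overlapped. In Control, cluster 17 had 4 cells and 4 Il17ra UMIs, and clusters 3 and 11 were at 81.2 and 68.9 CPM. Keratinocyte clusters 4 and 13 were at 10.6 and 8.80 CPM in Control and 8.04 and 8.26 CPM in Keap1 cKO. Over all epithelial cells there were 130 and 62 UMIs, 9.44 and 8.32 CPM, a log2 ratio of -0.18 (-0.64 to 0.26). Fibroblast cluster 1 and myeloid cluster 2 were higher in Keap1 cKO, at 11.3 and 27.0 CPM (log2 ratio 1.26, 0.78 to 1.73) and at 28.1 and 72.2 CPM (1.36, 0.90 to 1.84). So were fibroblast cluster 5 (0.92, 0.32 to 1.54) and cluster 12 (3.36, 0.84 to 8.69, from 1 and 77 UMIs). Cluster 8 had 0 and 33 UMIs, 24 of the latter in cells with at least 2 Cd3 UMIs. Over the whole libraries, whose makeup of cell types differed, Il17ra was at 12.5 and 36.9 CPM (1.56, 1.39 to 1.73). In cluster 3 the log2 ratio was 0.08 (-0.50 to 0.72).

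Il17rc, the chain that pairs with IL-17RA to bind IL-17A and IL-17F, lay mostly in epithelial cells, which held 77.9% of its Control UMIs and 68.9% of its Keap1 cKO UMIs. It had 1171 and 610 UMIs there, 85.1 and 81.9 CPM, a log2 ratio of -0.06 (-0.20 to 0.09). In Control the order was cluster 9 (158 CPM) and cluster 13 (141 CPM), whose intervals overlapped, then cluster 4 (62.5 CPM). In Keap1 cKO, cluster 13 was at 124 CPM, cluster 15 at 82.4 CPM from 7 cells, cluster 4 at 72.7 CPM and cluster 9 at 71.7 CPM. The interval of cluster 15 overlapped the other three. Cluster 9 was lower in Keap1 cKO, 70 UMIs in each library, with a log2 ratio of -1.14 (-1.64 to -0.64). With epithelial clusters 4, 9, 10 and 13 weighted equally, and 14 and 15 left out, the log2 ratio of Il17rc was -0.64. That of Il17ra was 0.45. Cluster 10, with as much weight as each other one, had only 20 and 0 Il17rc UMIs and 4 and 2 Il17ra UMIs. Epithelial cells with both chains were 85 of 848 (10.02%) and 39 of 422 (9.24%), and in cluster 13 they were 32 of 134 and 13 of 61. With cells of cluster 13 thinned to 12400 UMIs, 72.1% and 75.5% had Il17rc and 11.5% and 11.3% had Il17ra. Median depths of epithelial cells were 17667 and 5072.5 UMIs, which bears on these shares.

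**Figure D3:**
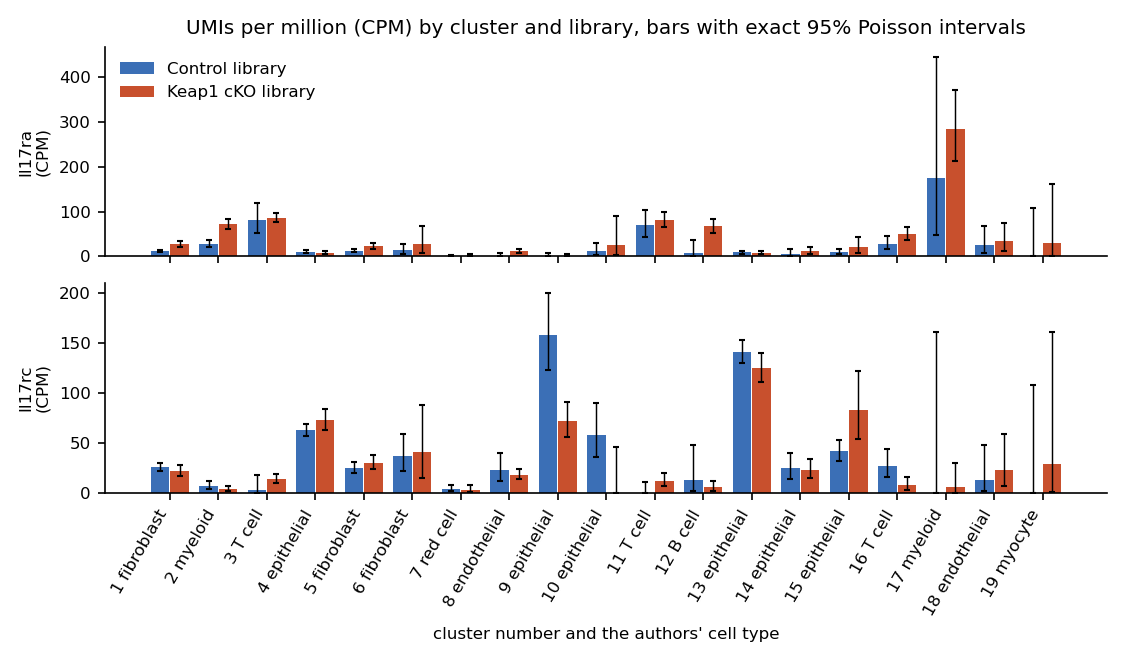
UMIs per 1000000 (CPM, linear axes) of Il17ra (top) and Il17rc (bottom) in each of 19 clusters in the Control (blue) and Keap1 cKO (orange) libraries, bars with exact 95% Poisson intervals. Il17ra is tallest in cluster 17, on 4 Control cells and 56 Keap1 cKO cells; Il17rc is tallest in epithelial clusters 9 and 13.

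Il22ra1, the chain that makes epithelium sensitive to IL-22, was near the limit of detection. It had 6 UMIs in Control, 5 of them in epithelial cells and 4 in cluster 13, and 3 UMIs in Keap1 cKO, each in an epithelial cell. The epithelial levels were 0.363 CPM (0.118 to 0.848) and 0.403 CPM (0.0830 to 1.18), a ratio of 1.11 (0.172 to 5.70), so a difference was not detectable at this depth. Its partner chain Il10rb was at 19.4 and 15.2 CPM in epithelial cells.

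Genes known to respond to IL-17 were higher in Keap1 cKO epithelial cells. Of 26 list genes with at least 20 UMIs, 26 were at least 1.5-fold higher, with a median log2 ratio of 3.28, where 17.5% of all genes were higher and the median over them was -0.02. The most abundant were S100a8 and S100a9, the calprotectin chains, and the protease inhibitor Slpi. S100a8 went from 12.3 to 7711 CPM (log2 ratio 9.29), S100a9 from 12.7 to 5281 CPM (8.70), and Slpi from 132 to 1312 CPM (3.32). The highest ratios besides S100a8 were those of Sprr2h, a cornified envelope gene (10.29, from 1 and 676 UMIs), and Saa3, an acute phase gene (9.37, from 3 and 1073 UMIs). Genes with few Control UMIs, such as these 2, passed the minimum through the Keap1 cKO library where they were high. The list was also chosen with earlier results of these data known, so its count is a description. The lowest were Nfkbiz, an NF-kB cofactor (1.05, 0.89 to 1.21), and the neutrophil chemokine Cxcl1 (1.07, 0.18 to 1.97, from 22 and 25 UMIs). S100a8 was at 194 CPM in Keap1 cKO cells of cluster 3 and 102 CPM in the red cells of cluster 7, which should lack it. The neutrophil markers Csf3r, Retnlg and Cxcr2 were at 0.671, 1.48 and 0.134 CPM in Keap1 cKO epithelial cells, against 1780, 3099 and 713 CPM in cluster 17.

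The IL-22 response list had 17 genes with enough UMIs, of which 13 were higher and 3 lower, with a median log2 ratio of 2.32, where 17.5% of all epithelial genes were higher and 15.8% lower. The share lower was near that of all genes. It shares S100a8, S100a9, Saa3 and Lcn2 with the IL-17 list. Reg3g, an antimicrobial lectin, had 0 Control UMIs and 2200 CPM in Keap1 cKO epithelial cells, a log2 ratio of at least 13.30. Reg3g and Saa3 passed the minimum through the Keap1 cKO library, so the count of this list too is a description. Krt6a, a stress keratin gene and the most abundant of the list after the calprotectin chains, went from 371 to 2536 CPM (log2 ratio 2.77). The lowest were the fucosyltransferase Fut2 (-1.01, -2.12 to -0.03, from 41 and 11 UMIs) and the receptor chain Il20rb (-0.84, -1.09 to -0.59). Keap1 deletion reaches the same cells, so the part of either cytokine in these lists cannot be told apart.

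Of 27 receptor signalling genes in epithelial cells, 6 were higher, 1 was lower and 20 lay within 1.5-fold, with a median log2 ratio of 0.23. Over all epithelial genes 17.5% were higher and 15.8% lower, and the share higher in the list was near that. The abundant Cebpb and Jak1 had log2 ratios of 0.34 and 0.02. The highest were Zc3h12a, the RNase regnase-1 (1.61, 1.37 to 1.85), Tnfaip3, the brake A20 (1.25, 0.77 to 1.73), and Cebpd, a C/EBP factor (1.17, 0.96 to 1.37). The lowest were Socs3, the STAT3 inhibitor (-0.65, -0.91 to -0.39), and Traf3ip2, the Act1 adaptor (-0.36, -0.70 to -0.04).

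Of 39 genes of the type 17 T cell program in cluster 3, 12 were higher, 8 lower and 19 within 1.5-fold, where 21.6% of all genes were higher and 14.5% lower. The median log2 ratio was 0.17, against 0.05 for all genes. S100a4, a calcium-binding protein gene, and Cxcr6, a tissue-homing chemokine receptor gene, were its most abundant besides Cd163l1, at log2 ratios of -0.41 and 0.34. The highest were Areg, the EGF receptor ligand amphiregulin (4.23, from 1 and 189 UMIs), Cd163l1, a scavenger receptor gene of gamma-delta T cells (2.80), and the transcription factor Sox13 (2.30). The lowest were Ccr6 (-2.36, 425 and 82.7 CPM) and lymphotoxin alpha, Lta (-2.30). Maf, a transcription factor gene of type 17 cells, had a log2 ratio of 0.78 (675 and 1157 CPM). Cd163l1 and Sox13 mark gamma-delta T cells, whose share of cluster 3 differed as given above, and the part of that makeup in the list was not tested.

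**Figure D4:**
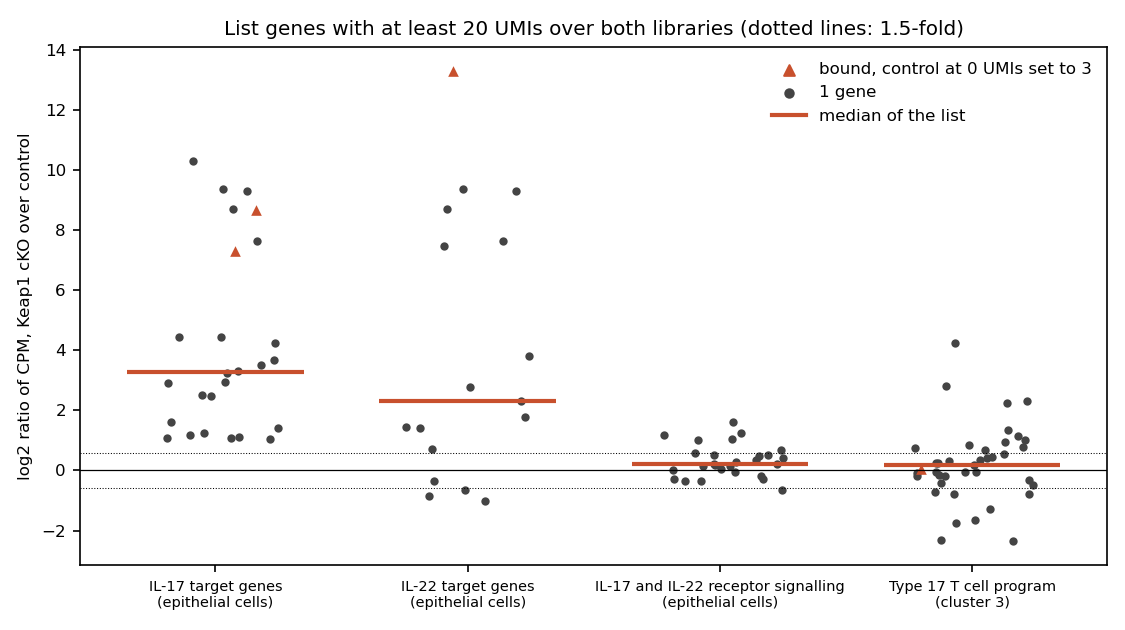
Log2 ratio of CPM, Keap1 cKO over Control (vertical axis), of each list gene with at least 20 UMIs, in epithelial cells (3 lists) and cluster 3 (1 list); bars are list medians, triangles are bounds for genes at 0 UMIs in Control and dotted lines mark 1.5-fold. The IL-17 target genes lie above the upper dotted line, with a median of 3.28, and the T cell program spreads to both sides of 0, with a median of 0.17.

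Over 33 sums of clusters by library with at least 20 cells, the genes most like each member were found by Pearson's r of log2(CPM + 1) among 12999 genes. The sums share libraries and depth, so r is a description. Il17a was most like Icos (0.93), Tcrg-C1 (0.91) and Il17f (0.91). Il17f was most like Crmp1 (0.92), Nxnl2 (0.91) and Il17a (0.91). Among the genes most like Il23r were Kcnmb4 (0.93) and Trdv4 (0.92), and Il22 was most like Rimbp2 (0.87), Wdr95 (0.87) and Tnfrsf8 (0.86). Il17ra was most like Bicra (0.84), Sun2 (0.83) and Arrb2 (0.83), and Il17rc like Kctd15 (0.83), Cbr3 (0.81) and Mb21d2 (0.78). Between the receptor chains Il17ra and Il17rc r was -0.42, and between Il17a and Il17rc -0.42. Il22ra1 had too few UMIs to be ranked.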

How the data were processed

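Single-cell 3′ RNA libraries (10x Genomics, per the labels' protocols) were made from 2 esophagus samples, 1 per genotype. The submitters' processing notes name mm10, Seurat 4.0.2, Cell Ranger 6.0.1 and R 4.1.1. The sources used here give no annotation and no filter on cells or doublets. The deposited values are natural log values, ln(UMIs scaled to 10000 per cell + 1), as read from the values: their exponentials minus 1 summed to 10000 in each of 4853 cells. Each cell's smallest step gave back its UMIs, and 100% of positive values were whole within 0.01 UMIs. Cells had at least 500 UMIs. Clusters and cell types are the authors' deposited labels. No doublets were removed here.

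UMIs were summed by cluster and library and given as CPM. Intervals at 95% are exact: Poisson for sums, conditional binomial for ratios and Clopper-Pearson for shares. Where a group had 0 UMIs, 3 counts over that group stood in. No count model was run, since 1 library per genotype leaves no replicates. The calculations were tested on simulated data. For shares of cells, each cell was thinned to the 10th percentile of depth, rounded down to a multiple of 100. Gamma-delta and alpha-beta cells were called within cells by 6 markers found of each list. Genes named are the 7 members, the 3 most abundant, 3 highest and 2 lowest genes of each list (at least 20 UMIs), the 3 genes most like each member with at least 50 UMIs, and 13 T cell genes. A gene that the rule names is not reported here. Other names in the text were chosen after their values were seen. The members and lists were chosen with earlier results of these data known. Alternatives were another scaling, other cell filters, thinning, stricter thresholds and marker-defined T cells. Marker-defined T cells within cluster 3 and over the whole library, the full-depth share and the alternatives to the Il17a share of UMIs were added after seeing the data. Gene locations are from GENCODE vM21 (mm10) and promoter sequences, found for 6 of 7 members, from RefSeq (GRCm38.p6), without bases that a GENCODE exon covers. Python 3.11.15 with numpy 2.4.6, pandas 2.3.3, scipy 1.17.1 and matplotlib 3.10.9 was used.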

Additional observations from a re-analysis of the deposited data

Results flagged for a closer look

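The log2 ratio of Il17a, Keap1 cKO over Control, lay to different sides of 0 in different clusters, with counting intervals that did not reach 0. It was 2.30 in fibroblast cluster 1, 0.86 in cluster 3, 5.12 in keratinocyte cluster 4, 5.27 in endothelial cluster 8, 4.96 in epithelial cluster 10 and 5.34 in cluster 11. In myeloid cluster 2 it was -0.98. The difference between clusters was not tested. In cluster 2 the 55 Control UMIs lay in 4 cells, 1 of which held 45. Within cells of cluster 1 with at least 2 Cd3 UMIs the log2 ratio was -0.25 (-0.76 to 0.28).

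Il17f likewise had log2 ratios of 2.95 (a lower bound) in cluster 8 and 4.48 in cluster 11, and of -1.29, -2.25 and -0.53 in clusters 1, 2 and 3. The difference between clusters was not tested. In cluster 1, 50 of the 51 Control Il17f UMIs were in cells with at least 2 Cd3 UMIs.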

How the results depend on the processing

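Of 127 alternative values over 25 results, 87 stayed within their counting interval or 1.5 times their count, 38 moved further, and 2 turned a log2 ratio whose interval did not reach 0. The 2 were in gamma-delta marker cells of cluster 3, where the log2 ratio was 0.54 for Il17f and -1.17 for Il23r. There Il17a was 0.44. In alpha-beta marker cells Il17a was 1.63 and Il17f -2.48, on 44 Control cells and 1 Keap1 cKO cell, too few to compare. In cells with at least 2 Cd3 UMIs of any cluster, Il17a was 1.17 (set beside the whole library, cluster 3 and cluster 11), and Il17f -0.14. Without the 5 cells with the most UMIs, Il17a was 5.02 in the whole library, 1.83 in cluster 3 and 3.47 (a bound) in cluster 11, Il22 0.15 (a bound) and Il23r 1.95 in cluster 3. As a mean over cells, the log2 ratio was 3.705 for Il17a in the whole library, -0.77 for Il17f in cluster 3, and 0.28 and -0.42 for Il17ra and Il17rc in epithelial cells. With thinned cells it was 3.77 for Il17a in the whole library and 0.94 (a bound) for Il22 in cluster 3. For epithelial Il17ra it was 0.74, on only 6 and 5 UMIs, and for Il17rc 0.30, on 44 and 27 UMIs. Without the deepest 5% of cells Il17f in cluster 3 was -0.78. With epithelial clusters 4, 9, 10 and 13 weighted equally Il17ra was 0.45 and Il17rc -0.64. So the small epithelial value of Il17ra changed sign under the mean over cells, thinning and equal weights, and that of Il17rc with thinning. Il22ra1, on 8 UMIs, went from 0.15 to -0.24 as a mean over cells and -2.01 with equal weights, within its counting interval. The share of cluster 3 cells with Il17a, Control and Keap1 cKO, was 31.6% and 75% at a minimum of 2 UMIs and 35.6% and 61.8% with cells thinned to 1000 UMIs, and 91.8% in Keap1 cKO at full depth. The Il17a share of Il17a and Il17f UMIs was 41.6% and 77.6% without the top 5 cells. It was 76.0% in Control gamma-delta cells and 73.6% in Keap1 cKO cells with at least 2 Cd3 UMIs. In alpha-beta cells it was 47.3% and 93.9%, the latter from 33 UMIs of 1 cell. At a 2-fold threshold, 1 gene of the IL-22 list and 0 of the signalling list were lower, and 6 of the T cell program were higher and 5 lower. The cause of these moves was not tested, save that fewer cells or a stricter threshold enter by construction. Median-of-ratios scaling shifted the log2 ratios of all genes by 0.12 over the whole library, -0.06 in cluster 3, 0.02 in cluster 11 and -0.01 in epithelial cells, and no value it gave left these limits. No mean over cells could be given for Il22, absent from Control, and some settings left too few Il22ra1 UMIs for a value. No paired analysis was possible because each genotype has 1 library. Depth limits Il22ra1, Il23a and the Control values of clusters 11 and 17.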

Other observations

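Il17d, an IL-17 family cytokine outside the type 17 lineage, was expressed by fibroblasts, with 529 of 733 Control UMIs and 174 of 287 Keap1 cKO UMIs in fibroblast cluster 1. Its level in that cluster was 79.7 and 61.0 CPM. Il1b, a cytokine that acts with IL-23 on type 17 cells, had 287 and 2306 UMIs, of which cluster 17 held 87.1% and 72.9%, from 4 and 56 cells. The level within cluster 17 was 10866 and 9008 CPM. Il6 had 36 and 32 UMIs and Tgfb1 877 and 2135. Il22ra2, the soluble IL-22 antagonist, had 7 and 3 UMIs.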
